A study of Mus musculus with 6 samples.

Results

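Genes that mark the making of dentate granule cells were examined on postnatal day 10 in hippocampi of *LAO1* KO pups, on 3 arrays from pups whose dams were *LAO1* KO (*LAO1* KO with KO milk) and 3 from pups whose dams were WT (*LAO1* KO with WT milk). LAO1 is an L-amino acid oxidase of mouse milk that forms hydrogen peroxide from free amino acids. Every pup carried the knockout, so the groups differed in the genotype of the nursing dam and not in that of the pup. The mice had a C57BL/6Jcl background, pups were exchanged between dams soon after birth, and no source ties a pup to its litter. Whole-hippocampus RNA was hybridized to 1-colour Clariom S mouse arrays, on which a set of probes for a gene is named a transcript cluster, and the values are log2 intensities. The members were *Neurog2*, *Eomes*, *Neurod1*, *Prox1*, *Dcx*, *Sox4*, *Sox11*, *Igfbpl1* and *Calb2*, 9 genes chosen by name along the path from progenitor to immature granule cell. Of these, 8 matched a gene symbol of the array annotation, out of 19505 genes with a symbol, and each of the 8 had 1 cluster. *Neurod1* was not matched and is not analysed here.

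Granule cells of the dentate gyrus arise from radial glia-like stem cells through dividing intermediate progenitors, which pass through a neuroblast stage before they become immature and then mature neurons. In mice most of them are made after birth, and the hippocampus continues to form them in adult life, where they take part in spatial memory. NEUROG2 is a proneural basic helix-loop-helix factor that commits progenitors to the neuronal fate, EOMES (TBR2) marks the intermediate progenitors, and PROX1 fixes granule cell identity. DCX, SOX4 and SOX11 belong to migrating and maturing young neurons, and calretinin, the product of *Calb2*, appears for a short time in immature granule cells.

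With KO milk, *Prox1* was higher in every array than in any array with WT milk, by 1.46-fold, whereas none of the other 7 measured members separated the groups. The progenitor genes *Neurog2* and *Eomes* had log2 fold changes, KO milk over WT milk, of -0.04 and -0.26, and the young neuron genes *Sox4*, *Sox11* and *Igfbpl1* had values of 0.05, 0.01 and 0.16, all within the spread between arrays. *Dcx* was high in 2 KO milk arrays and low in replicate 3. *Calb2* varied more between the WT milk arrays than between the groups. With an unadjusted limma p under 0.05, 1 member was higher, 0 were lower and 7 stayed short of it, where 1.61% of all 22206 clusters were higher and 1.66% were lower (3.27% in either direction). No member passed after Benjamini-Hochberg adjustment over all clusters (adjusted p = 0.9996 for each from limma), and neither did any other cluster. The groups did not overlap for 1 of the 8 members, with KO milk higher, and for 8.43% of all clusters (4.26% with KO milk higher and 4.17% with KO milk lower). The median log2 fold change was 0.03 over the 8 members and 0.0025 over all genes.

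**Figure D1:**
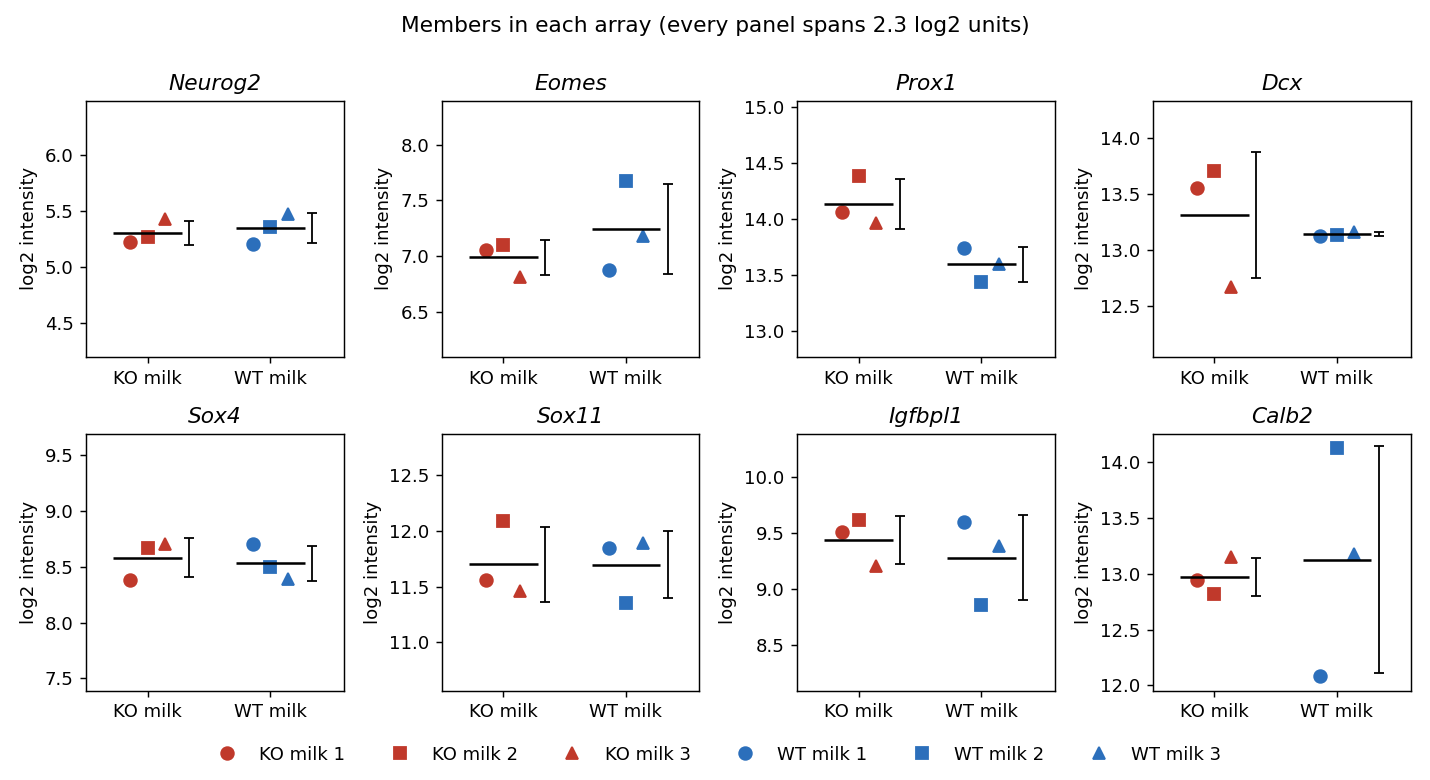
Log2 intensity of the 8 measured members in each array (points; circle, square and triangle for replicates 1, 2 and 3), with KO milk left and WT milk right, the group mean (line) and its SD (bar, n = 3 each). All panels span the same number of log2 units. *Prox1* is the panel in which the groups are apart, *Dcx* has a low KO milk array (replicate 3) at 12.67, and *Calb2* runs between 12.08 and 14.12 in the WT milk arrays.

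The arrays were first checked for what else differed. Markers of CA pyramidal cells lay above the array's median intensity on every array for 11 of 11 genes, and so did 10 of 15 markers of mature granule cells, with *Tdo2*, *Icam4*, *Trpc6*, *Plk5* and *Tanc1* below it on every array. KO milk replicate 3 stood apart, since its distance to the other arrays (root mean square of log2 differences) was 0.479 to 0.537 and theirs to each other 0.321 to 0.407. Without it the log2 fold changes were -0.10 for *Neurog2*, -0.17 for *Eomes*, 0.63 for *Prox1*, 0.49 for *Dcx*, -0.0078 for *Sox4*, 0.13 for *Sox11*, 0.28 for *Igfbpl1* and -0.25 for *Calb2*. The labels call every pup male, and the methods name both sexes. The mean of 3 Y-linked genes (*Eif2s3y*, *Kdm5d*, *Uty*) was 3.26, 9.98 and 3.35 in KO milk replicates 1, 2 and 3 and 10.45, 3.56 and 9.97 in WT milk replicates 1, 2 and 3. The low values of KO milk replicates 1 and 3 and WT milk replicate 2 go against the label of male. High signal was uneven between the groups (1 KO milk array and 2 WT milk arrays). *Ttr*, the main transcript of the choroid plexus, read 10.76, 18.18 and 7.69 with KO milk and 17.74, 17.68 and 17.10 with WT milk. Of 14 myelin genes 12 were lower with KO milk by an unadjusted limma p under 0.05, and of 10 thalamus genes other than *Calb2* 4 were. The part of these differences in the results for the members was not tested beyond values within arrays of like Y-linked signal, fits with that signal as a covariate and fits without an array. Bulk RNA cannot tell apart fewer cells of a type and less RNA per cell.

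*Neurog2* lay below the median intensity of its array on all 6 arrays. It read 5.22, 5.26 and 5.43 in KO milk replicates 1, 2 and 3, against 5.21, 5.36 and 5.47 with WT milk. The ranges lay on top of each other. The log2 fold change was -0.04 with a 95% interval of -0.42 to 0.34 (unadjusted p = 0.817 from limma). The residual SD of *Neurog2* was 0.12, smaller than that of all but 9.3% of clusters.

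*Eomes*, whose product is a T-box factor of intermediate progenitors, read 7.06, 7.10 and 6.81 with KO milk, against 6.87, 7.68 and 7.18 with WT milk. WT milk replicate 2 was the high array, and the other 5 lay within 6.81 to 7.18. The log2 fold change was -0.26 (95% interval -0.75 to 0.23, unadjusted p = 0.275 from limma), and it was -0.04 without WT milk replicate 2 and -0.44 without WT milk replicate 1. In the arrays with low Y-linked signal the difference was -0.74 (2 KO milk arrays and 1 WT milk array), and in those with high signal it was 0.07 (1 KO milk array and 2 WT milk arrays).

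*Prox1* encodes a homeobox factor that granule cells keep from their birth into adult life. In the hippocampus it is also found in interneurons that come from the caudal ganglionic eminence. It read 14.06, 14.39 and 13.96 in KO milk replicates 1, 2 and 3, against 13.74, 13.44 and 13.60 in WT milk replicates 1, 2 and 3. The lowest KO milk array lay above the highest WT milk array. Group means were 14.13 ± 0.22 with KO milk and 13.59 ± 0.15 with WT milk (SD, n = 3 each), a log2 fold change of 0.54 (standard error 0.19, 95% interval 0.13 to 0.96, unadjusted p = 0.0149 and adjusted p = 0.9996 from limma). The exact two-sided permutation test gave p = 0.1, the smallest that 3 arrays against 3 allow. The difference was 0.42 without KO milk replicate 2 (unadjusted p = 0.066) and 0.46 without WT milk replicate 2 (unadjusted p = 0.0599, both from limma), where *Prox1* no longer passed. Within arrays of high Y-linked signal *Prox1* was 0.72 higher (1 KO milk array and 2 WT milk arrays), and within those of low signal 0.57 higher (2 KO milk arrays and 1 WT milk array).

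No gene of the mature granule cell list separated the groups as *Prox1* did. *Calb1*, the calbindin of mature granule cells, read 11.38, 11.47 and 10.87 with KO milk, against 11.25, 10.73 and 11.32 with WT milk. *C1ql2*, a synaptic protein of granule cell axons, read 7.85, 8.17 and 8.83 with KO milk, against 8.36, 7.56 and 8.25 with WT milk. *Dsp*, which encodes desmoplakin and marks the granule cell layer, read 7.64, 7.40 and 7.37 with KO milk, against 8.06, 7.10 and 7.05 with WT milk. In all 3 genes the groups overlapped, with log2 fold changes of 0.14, 0.23 and 0.07 (unadjusted p = 0.547, 0.443 and 0.795 from limma). The 15 mature granule cell genes gave 0 higher, 0 lower and 15 not passing, with a median of -0.01. Of the 12 interneuron genes other than *Calb2*, 0 passed as well, with a median of -0.11. That list covers interneurons as a whole. The part of those from the caudal ganglionic eminence in the level of *Prox1* was not tested.

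*Prox1* was the member whose groups did not overlap, which was also the case for 8.43% of all clusters. For *Dcx*, 2 KO milk arrays lay above all WT milk arrays. The sequences upstream of both starts of *Prox1* and of start 1 of *Dcx* are therefore shown. They are the 250 bases before each start from RefSeq on GRCm38.p6, and RefSeq windows were at hand for 6 of the 8 members. *Dcx* has 1 more start in the table (chrX:143933125-143933374), whose window overlaps that of start 1, held 0 E-boxes and is not shown. Capitals mark the E-box CANNTG (N is any base, the same on both strands), the sequence that proneural factors such as NEUROG2 bind.
*Prox1*, start 1, chr1:190170828-190171077, minus strand: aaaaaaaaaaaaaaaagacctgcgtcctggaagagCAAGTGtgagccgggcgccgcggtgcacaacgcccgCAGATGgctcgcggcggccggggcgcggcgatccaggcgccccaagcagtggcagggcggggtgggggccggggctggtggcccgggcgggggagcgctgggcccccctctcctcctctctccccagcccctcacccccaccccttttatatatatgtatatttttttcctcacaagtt
*Prox1*, start 2, chr1:190169516-190169765, minus strand: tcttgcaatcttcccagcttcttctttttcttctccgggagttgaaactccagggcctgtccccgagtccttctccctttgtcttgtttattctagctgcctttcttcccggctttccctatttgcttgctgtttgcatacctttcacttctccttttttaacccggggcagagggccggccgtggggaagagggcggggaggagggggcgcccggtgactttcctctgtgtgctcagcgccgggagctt
*Dcx*, start 1, chrX:143933220-143933469, minus strand: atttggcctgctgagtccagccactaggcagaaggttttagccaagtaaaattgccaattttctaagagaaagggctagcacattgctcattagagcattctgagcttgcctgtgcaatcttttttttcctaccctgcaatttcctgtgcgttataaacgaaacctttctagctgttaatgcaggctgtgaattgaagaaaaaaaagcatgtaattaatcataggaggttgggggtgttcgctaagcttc
The window before the *Prox1* start 1 held 2 E-boxes, and the other windows shown held 0. Of the 2 boxes, 1 had the form CAGATG (or CATCTG on the other strand, a subset of CANNTG). CANNTG occurred in 66.2% of the 32851 windows of this length in the table and in 3 of the 8 windows of the members, and CAGATG in 14.4% of all windows and in 1 of those 8. A match of letters is a description of the window and not of binding.

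*Dcx*, the microtubule-associated protein of migrating neurons, read 13.55, 13.71 and 12.67 in KO milk replicates 1, 2 and 3, against 13.13, 13.13 and 13.16 with WT milk. The WT milk arrays lay close together, 2 KO milk arrays lay above all of them, and KO milk replicate 3 lay below all of them. The log2 fold change was 0.17 (standard error 0.26, 95% interval -0.40 to 0.73, unadjusted p = 0.522 from limma). Without KO milk replicate 3, the array that stood apart, it was 0.49 (unadjusted p = 0.0148 from limma), and without KO milk replicate 2 it was -0.03. *Dcx* was 0.57 higher within arrays of high Y-linked signal (1 KO milk array and 2 WT milk arrays), and its difference within those of low signal was -0.02 (2 KO milk arrays and 1 WT milk array). *Neurod6*, a factor of pyramidal and young granule neurons, was also lowest in KO milk replicate 3. It read 14.99, 15.30 and 14.06 with KO milk, against 14.40, 14.91 and 15.13 with WT milk. *Tubb3* and *Tubb2b*, tubulins of young neurons, were instead highest in that array, at 15.69 and 16.74.

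*Sox4* and *Sox11* encode SoxC factors, which act side by side in young neurons and switch on *Dcx* and other neuronal genes. *Sox4* read 8.38, 8.67 and 8.70 with KO milk, against 8.70, 8.50 and 8.40 with WT milk. *Sox11* read 11.56, 12.08 and 11.46 with KO milk, against 11.84, 11.35 and 11.89 with WT milk. In both genes the groups overlapped, and the log2 fold changes of 0.05 (95% interval -0.35 to 0.45) and 0.01 (95% interval -0.49 to 0.51) lay near 0 (unadjusted p = 0.781 and 0.98 from limma). KO milk replicate 2 and WT milk replicate 1 were among the 3 highest arrays for both genes, whereas KO milk replicate 3 was among the 3 highest for *Sox4* and next to the lowest for *Sox11*. With the Y-linked signal as a covariate the log2 fold change of *Sox11* was 0.21 (unadjusted p = 0.293 from limma).

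*Igfbpl1*, an insulin-like growth factor binding protein-like gene used as a marker of neuroblasts, read 9.50, 9.62 and 9.20 with KO milk, against 9.60, 8.86 and 9.38 with WT milk. WT milk replicate 2 was the low array and KO milk replicate 2 the high one. The log2 fold change was 0.16 (95% interval -0.33 to 0.65, unadjusted p = 0.483 from limma), or -0.05 without WT milk replicate 2 and 0.33 with the Y-linked signal as a covariate.

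*Calb2* was the most variable member. It read 12.94, 12.81 and 13.15 in KO milk replicates 1, 2 and 3, against 12.08, 14.12 and 13.18 in WT milk replicates 1, 2 and 3. All 3 KO milk arrays lay between the lowest and the highest WT milk array, which were 2.04 apart, a spread that no other member approached (0.26 to 1.04 over all 6 arrays). Its SD was 0.17 with KO milk and 1.02 with WT milk (n = 3 each), and its residual SD exceeded that of 99.5% of clusters. The log2 fold change was -0.16 (standard error 0.40, 95% interval -1.04 to 0.72, unadjusted p = 0.701 from limma). It was -0.68 without WT milk replicate 1 (unadjusted p = 0.0399) and 0.34 without WT milk replicate 2 (unadjusted p = 0.297, both from limma). Within arrays of high Y-linked signal the difference was 0.18 (1 KO milk array and 2 WT milk arrays) and within those of low signal -1.07 (2 KO milk arrays and 1 WT milk array), and with that signal as a covariate it was -0.49 (unadjusted p = 0.187 from limma).

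Calretinin is also made by interneurons, Cajal-Retzius cells and thalamic neurons, and genes of these were compared with *Calb2* array by array. WT milk replicate 2, the array with the most *Calb2*, was also the highest for *Zic1*, at 13.32 against 10.53 to 11.02 in the other 5. It was the highest for *Tcf7l2* too, at 12.88 against 11.01 to 12.10. Both genes encode transcription factors and are on the thalamus list, and which cells they came from was not tested. Both were lower in every KO milk array than in any WT milk array, as were 10 of the 14 myelin genes (4.17% of all clusters). WT milk replicate 2 was the highest of the 6 for 7 of the 10 thalamus genes other than *Calb2*. Among these its lead was small for *Slc17a6* (9.917 against 9.906 in WT milk replicate 1) and *Prkcd* (11.66 against 11.63 in WT milk replicate 3). WT milk replicate 2 was also highest for 2 of the 8 Cajal-Retzius genes (*Ebf3* and *Cacna2d2*) and 5 of the 12 interneuron genes (*Gad2*, *Slc32a1*, *Dlx1*, *Dlx2* and *Dlx5*). Among the interneuron genes the lead was small for *Slc32a1* (11.596 against 11.595 in KO milk replicate 3) and *Gad2* (11.69 against 11.64 in KO milk replicate 1). WT milk replicate 3 was the highest for 4 of the 12 interneuron genes (*Lhx6*, *Vip*, *Sst* and *Npy*). The summed intensity of the 10 thalamus genes other than *Calb2* was 12.84 to 13.05 on the log2 scale with KO milk and 13.24 to 14.50 with WT milk, the highest in WT milk replicate 2. Such a sum is weighted to the brightest genes. In WT milk replicate 2 these were *Zic1* and *Tcf7l2*, so the sum there largely repeats their values. Among the thalamus genes *Gbx2*, *Lef1* and *Ramp3* lay below the median intensity on every array. WT milk replicate 1, the array with the least *Calb2*, had 12.10 of *Tcf7l2*, the second highest value, so the order of the arrays differed between these genes. The summed intensity of the 8 Cajal-Retzius genes other than *Calb2* was 11.74 to 11.93 with KO milk and 11.63 to 11.76 with WT milk, the lowest in WT milk replicate 2, with *Trp73*, *Lhx1*, *Lhx5* and *Ebf3* below the median intensity on every array. That of the 12 interneuron genes was 16.55 to 16.90 with KO milk and 16.73 to 17.00 with WT milk. Here WT milk replicate 2 was the lowest of the WT milk arrays. This sum mostly followed *Sst*, by far the brightest of the interneuron genes, at 16.42 to 16.78 with KO milk and 16.59 to 16.88 with WT milk. It therefore says little of the other interneuron genes. The part of any of these cells in the level of *Calb2* was not tested.

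**Figure D2:**
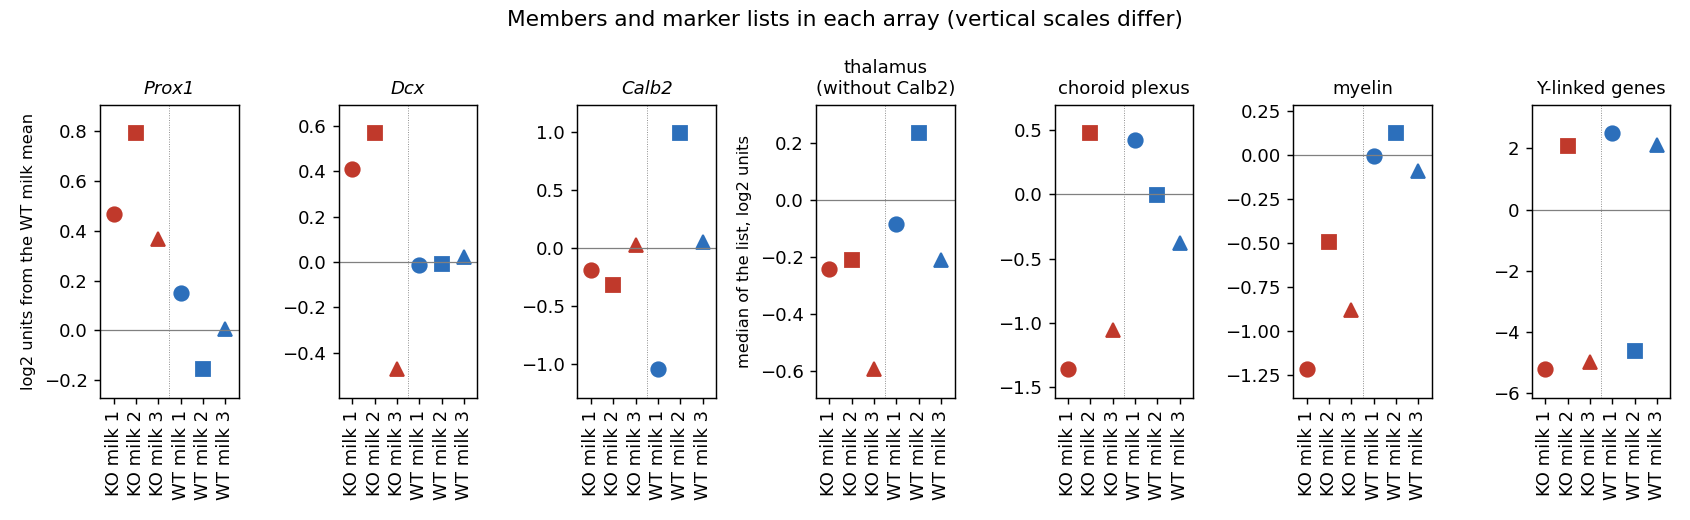
Distance from the WT milk mean, in log2 units, of *Prox1*, *Dcx* and *Calb2* and the median of the same distance over the genes of 4 marker lists, in each array with KO milk left and WT milk right. The vertical scales differ. *Prox1* is above 0.3 in all KO milk arrays, *Calb2* spans -1.05 to 0.995 among the WT milk arrays, and the myelin list is below -0.4 in all KO milk arrays.

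Around the members, lists of genes of each stage were examined. The list of radial glia-like stem cells had a median log2 fold change of -0.00062 over 17 measured genes, and by an unadjusted limma p under 0.05 it gave 0 higher, 0 lower and 17 not passing. Those with the smallest p were *Prom1* (prominin), *Hes5* (a Notch target) and *Nr2e1* (TLX, a nuclear receptor that maintains stem cells), at -0.35, 0.30 and -0.25. *Prom1* was lower in every KO milk array than in any WT milk array (unadjusted p = 0.0843 from limma), and the stem cell factor *Sox2* was at -0.01. Of 11 intermediate progenitor genes other than the members, 2 were higher (1.61% of all clusters), 0 lower (1.66%) and 9 not passing, with a median of 0.15. Of the 11, 6 lay below the median intensity on every array (*Insm1*, *Neurod4*, *Hes6*, *Dll3*, *Tac2* and *Nhlh1*), and the median is the value of *Nhlh1*.

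*Sstr2*, a somatostatin receptor of progenitors and of mature neurons, read 12.82, 12.75 and 12.87 with KO milk, against 12.55, 12.07 and 12.49 with WT milk, so the groups did not overlap. Its log2 fold change was 0.44 (standard error 0.19, unadjusted p = 0.0375 from limma). *Dll1*, the Notch ligand of committed progenitors, also had a value of 0.44 (unadjusted p = 0.0454 from limma), with overlapping groups. *Gadd45g*, a stress and differentiation gene, went the other way at -0.54 without passing (unadjusted p = 0.0506 from limma). It read 7.84, 7.80 and 7.03 with KO milk, against 8.39, 7.87 and 8.04 with WT milk, with no overlap. *Btg2*, an antiproliferative gene of progenitors, did not overlap either, at 7.08 to 7.25 with KO milk and 7.36 to 7.64 with WT milk (log2 fold change -0.30, unadjusted p = 0.106 from limma). Among these 11 genes, no overlap was seen for 1 with KO milk higher (4.26% of all clusters) and for 2 with KO milk lower (4.17% of all clusters). *Sstr2* and *Dll1* are on the same list as *Neurog2* and *Eomes*, for which the groups overlapped.

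Of 17 genes of neuroblasts and immature granule cells other than the members, 0 were higher, 0 lower and 17 not passing, with a median log2 fold change of 0.12. The smallest p belonged to *Draxin*, a guidance protein of young neurons, *St8sia2*, the sialyltransferase that adds polysialic acid to NCAM, and *Tubb2b*, at 0.40, 0.41 and 0.31 (limma unadjusted p = 0.0503, 0.0536 and 0.158). *Draxin* read 6.56, 6.45 and 6.80 with KO milk, against 6.26, 6.02 and 6.32 with WT milk, with no overlap, and lay below the median intensity on every array. *Gap43*, the growth cone protein, did not overlap either, at 15.05 to 15.11 with KO milk and 14.92 to 14.98 with WT milk, although the difference was 0.12 (unadjusted p = 0.471 from limma). The share of groups that did not overlap, with KO milk higher, was 2 of 17 in this list and 4.26% over all clusters, and with KO milk lower it was 0 of 17 and 4.17%.

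Genes of the cell cycle, which progenitors use, gave 1 higher (1.61% of all clusters), 0 lower (1.66%) and 13 not passing of 14 measured, with a median of 0.08. The higher gene was *Mcm5*, a helicase subunit of DNA replication, at 0.49 (unadjusted p = 0.0274 from limma), which lay below the median intensity on every array. So did *Top2a*, *Cdk1*, *Mcm3*, *Bub1*, *Aurkb* and *Birc5* of this list. The helicase subunit *Mcm6* was at 0.21 and the proliferation marker *Mki67* at -0.41. *Mki67* read 8.41, 8.72 and 7.80 with KO milk, against 8.71, 8.90 and 8.54 with WT milk. Among mature granule cell genes the smallest p belonged to *Il16*, *Ntng1* and *Npnt*, at 0.33, -0.31 and 0.25. Among Cajal-Retzius genes it belonged to *Trp73*, *Reln* and *Ebf3*, at 0.31, 0.22 and -0.31, and none of these 6 passed.

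**Figure D3:**
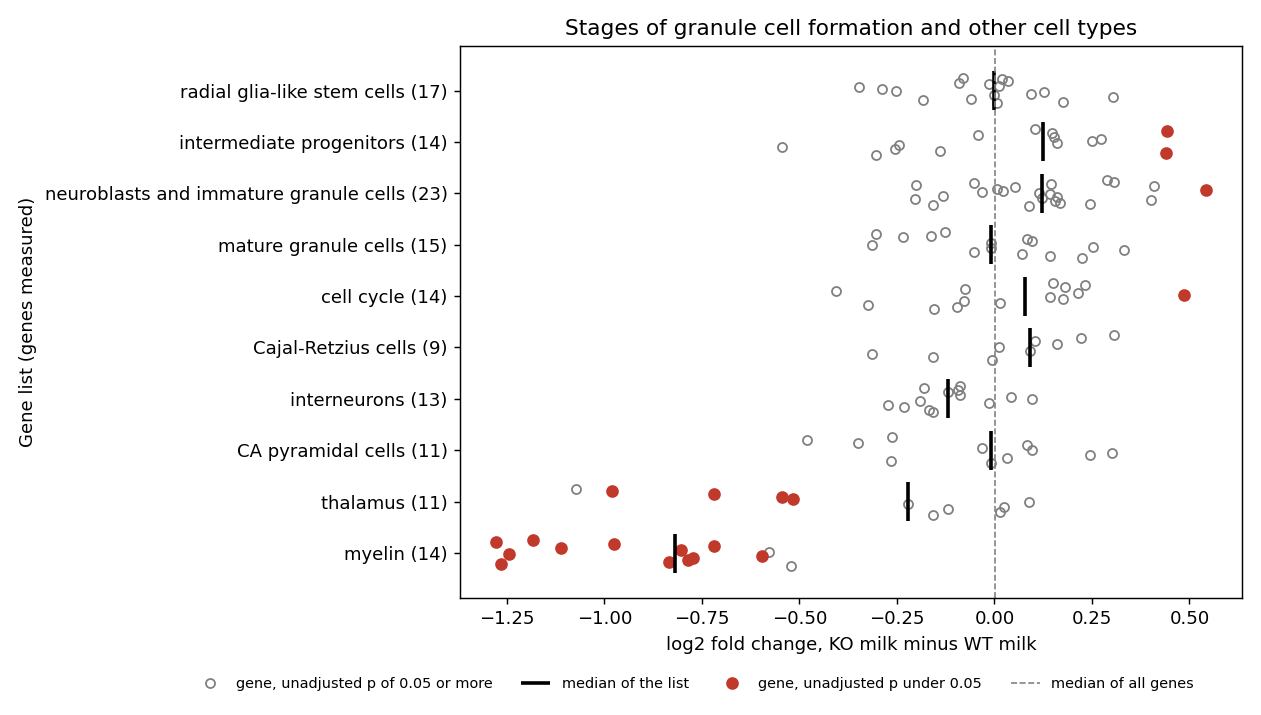
Difference of KO milk minus WT milk (log2 fold change) of each measured gene in the stage lists and in lists of other cell types, members included, with the median of each list (bar) and of all genes (dashed line). Filled points had an unadjusted limma p under 0.05. The stage lists have medians between -0.01 and 0.13, and the myelin list is at -0.82.

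Arrays did not order the members in a common way. Against the WT milk mean, 3, 5 and 4 of the 8 members were higher in KO milk replicates 1, 2 and 3, and 4, 3 and 6 were higher in WT milk replicates 1, 2 and 3. Leaving out each array in turn turned the sign of 6 of the 8 log2 fold changes at least once, those of *Neurog2*, *Dcx*, *Sox4*, *Sox11*, *Igfbpl1* and *Calb2*, and did not turn those of *Eomes* and *Prox1*. After each gene was scaled to its own mean and SD, the mean profile of the 8 members was highest in KO milk replicate 2. Of 9746 other genes at or above the median intensity, *Zgrf1*, *Mrps18c*, *Dguok*, *Emcn* and *Gtf2f2* had profiles nearest to it over the 6 arrays, at differences (root mean square) of 0.127 to 0.216 in SD units. Their log2 fold changes were 0.21, 0.20, 0.06, 0.09 and 0.15.

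**Figure D4:**
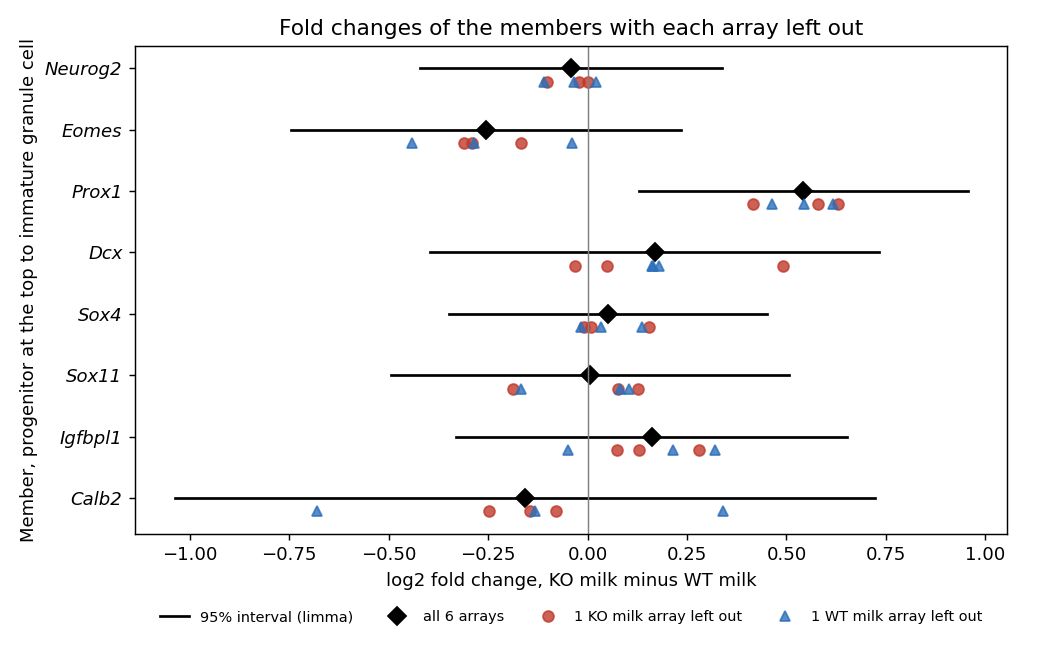
Difference of KO milk minus WT milk (log2 fold change) of each member from all 6 arrays (diamond) with its 95% interval from limma (line), and the value with 1 KO milk array (circle) or 1 WT milk array (triangle) left out. *Prox1* is the member whose interval lies above 0, and its values with an array left out run from 0.42 to 0.63. The value of *Dcx* is 0.49 without KO milk replicate 3, and those of *Calb2* run from -0.68 to 0.34.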

How the data were processed

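Total RNA from the hippocampus was hybridized to 1-colour arrays, 1 array per sample. Samples were grouped by the genotype of the mother in the labels, read here as the nursing dam. The authors deposited a log2 intensity for each transcript cluster. Their processing notes name Transcriptome Analysis Console and RMA, a method that corrects background, brings arrays to a common distribution and summarizes probes. The genome build and the annotation version are not given in the sources used here. Of 22206 clusters, 19572 carried 1 gene symbol, 0 several and 2634 none, and all 19572 gene identifiers were found in the RefSeq gene table. The brightest cluster stood for a gene. With no filter, lmFit and eBayes of limma 3.58.1 (R 4.3.3) gave the difference of KO milk minus WT milk for every cluster. Benjamini-Hochberg adjustment ran over all clusters, with a threshold of 0.05. The fit was tested on simulated data.

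The members and gene lists were chosen with earlier results of these data known. The genes named are the members, up to 3 other genes with the smallest p of each stage list, markers beside a result, and the 5 genes with the nearest profile. *Sox2*, *Neurod6*, *Tubb3*, *Gap43*, *Btg2*, *Cacna2d2* and *Ttr* were named after their values were seen. Alternatives were other normalizations and a filter on dim clusters (mean log2 intensity of at least 6 in a group). Others were a variance trend, array weights, a Student's t-test on each cluster and the replicate number as a block. The rest were Y-linked signal as a covariate, all clusters of a symbol and leaving out each array. Nothing says that pups of a group came from separate litters, so p-values measure the spread between these arrays, whose number limits the precision.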

Additional observations from a re-analysis of the deposited data

How the results depend on the processing

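Of the 8 members, *Prox1* kept its direction in all 16 alternatives, with log2 fold changes of 0.42 to 0.66. The variance trend, the t-test, the replicate block, the filter on dim clusters and all clusters of a symbol cannot move a member's fold change here. The direction under these was fixed in advance. *Prox1* lost its unadjusted p under 0.05 in 2 alternatives, which left out KO milk replicate 2 or WT milk replicate 2. Over the alternatives its unadjusted p ran from 0.0059 to 0.066, and its adjusted p in the fits over all clusters from 0.792 to 0.99999. *Eomes* kept its direction too, at -0.44 to -0.04. With an array left out in turn, the log2 fold change ran from -0.11 to 0.022 for *Neurog2*, -0.031 to 0.49 for *Dcx*, -0.016 to 0.15 for *Sox4*, -0.19 to 0.13 for *Sox11*, -0.049 to 0.32 for *Igfbpl1* and -0.68 to 0.34 for *Calb2*, so each of these turned its sign in at least 1 fit, and the cause was not tested. No sign turned under the alternatives that kept all 6 arrays and could move the fold change. With Y-linked signal as a covariate *Dcx* was at 0.28, *Sox4* at 0.088, *Sox11* at 0.21, *Igfbpl1* at 0.33 and *Calb2* at -0.49, and with array weights *Neurog2* was at -0.11, *Dcx* at 0.35, *Sox4* at 0.0056 and *Calb2* at -0.33, none of them with an unadjusted p under 0.05.

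The count of members at an unadjusted p under 0.05 was 1 in every alternative that kept all arrays and ran from 0 to 2 with an array left out. It was 0 when KO milk replicate 2 or WT milk replicate 2 was left out. It was 2 in the fit that lacked KO milk replicate 3 (*Prox1* and *Dcx*) and in the fit that lacked WT milk replicate 1 (*Prox1* and *Calb2*). The count of all clusters at an unadjusted p under 0.05 was 726, and it was 1165 with array weights, 479 with Y-linked signal as a covariate and 368 with the filter on dim clusters, which tested 13402 clusters and left out *Neurog2*. With an array left out it ran from 588 to 1376, the most without KO milk replicate 2. The Student's t-test on each cluster gave 764 and, after adjustment, 0. After adjustment limma called 0 clusters with all arrays and 0 to 1 with an array left out, the 1 without KO milk replicate 2.

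Deviations of same-numbered arrays from their group means had correlations of 0.02, -0.13 and 0.02 for replicates 1, 2 and 3. From 3 arrays per group, such values cannot tell whether the numbers pair the samples. With the replicate block, 722 clusters had an unadjusted p under 0.05, and *Prox1* was at 0.54 (unadjusted p = 0.027 from limma). The dim signal of *Neurog2* limits what the arrays show of it.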
